A study of Mus musculus with 14 samples.

Results

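The histone variant H2A.Z, which replaces ordinary H2A in part of the nucleosomes, was compared between the intestinal epithelium of the early embryo and the adult intestinal stem cell (ISC), by chromatin immunoprecipitation followed by sequencing (ChIP-seq). The comparison rests on the 4 deposited peak lists of both cell populations, 1 per library, on chromosomes 1 to 19. Peaks that overlapped or touched were merged into regions, and a region counted as present in a list that had any peak within it. This gave 42057 regions, where the 8 H2A.Z lists of the whole series give 45028 over all chromosomes and 44109 on the autosomes.

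The embryonic group was the small intestine of embryos at E12.5, sorted for live cells with the epithelial surface protein EpCAM and without the endothelial marker CD31 or the blood cell marker CD45. The adult group was made of Lgr5-EGFP high cells from the small intestine of Lgr5EGFP-Cre-ERT males aged 2 months (P60), in which the Lgr5 gene's own regulation drives the green reporter. Both groups were of a mixed C57BL/6 CD1 background, per the labels, with 250000 sorted cells and fixed chromatin sheared to 350 to 700 bp. The E12.5 group is thus the whole EpCAM+ epithelium of an embryo of unstated sex, whereas the ISC group is 1 reporter-defined population of males. Each group had 2 H2A.Z libraries that the series text calls biological duplicates. Whether they came from separate animals or pools is not given in the sources used here, so a p-value measures only the spread between these libraries, which may be technical.

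H2A.Z is placed into nucleosomes by dedicated remodelling complexes and is known for its presence beside active or poised promoters and at enhancers. Lgr5, a receptor for R-spondin ligands that strengthens Wnt signalling, marks the dividing stem cells at the base of adult crypts. At E12.5 the intestinal epithelium is a proliferating layer that has formed neither villi nor crypts, and its cells have not yet become the absorptive and secretory cells of the later gut. No annotation of the files' genome build, mm9, was used here, so regions are given by coordinates and the cell identities could not be checked against marker genes.

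The libraries held 31507399 to 38511645 reads after the authors' filtering, and the peak caller estimated fragment sizes of 204 to 216 bp at E12.5 and 228 to 247 bp in ISC. The autosomal lists held 25461 and 21661 peaks at E12.5, replicate 1 and replicate 2, and 26299 and 31376 peaks in ISC. The median peak length was 797 and 738 bp at E12.5 against 920 and 818 bp in ISC, so that the E12.5 peaks covered 23.0 and 17.9 Mb and the ISC peaks 27.8 and 31.2 Mb. Both ISC libraries were called against 1 shared input and each E12.5 library against its own, per the file headers. Stage, list length, fragment size and input therefore differ together between the groups and cannot be told apart.

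The E12.5 and ISC peak lists shared the stronger part of their H2A.Z regions, and many weaker ones were called in 1 stage alone. A region without a peak in a list was not called there, which does not show that H2A.Z was absent. All 4 lists had 14905 regions, 35.4% of the total (95% Wilson interval 35.0 to 35.9). Both E12.5 lists and neither ISC list had 2883 regions, 6.85% (6.62 to 7.10), called E12.5 regions below. Both ISC lists and neither E12.5 list had 6246 regions, 14.9%, called ISC regions below. A further 13422 regions, 31.9%, were in a single list, and 6086 of these were in ISC replicate 2 and 3559 in E12.5 replicate 1. The Jaccard index, the regions in both lists over the regions in either, was 0.681 between the E12.5 replicates and 0.698 between the ISC replicates. Between the stages it lay lower in every pair of lists, from 0.450 to 0.516. No test was run on presence, since 2 lists against 2 allow no exact permutation p below 0.333, and the intervals cover counting error only and treat neighbouring regions as independent.

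**Figure D1:**
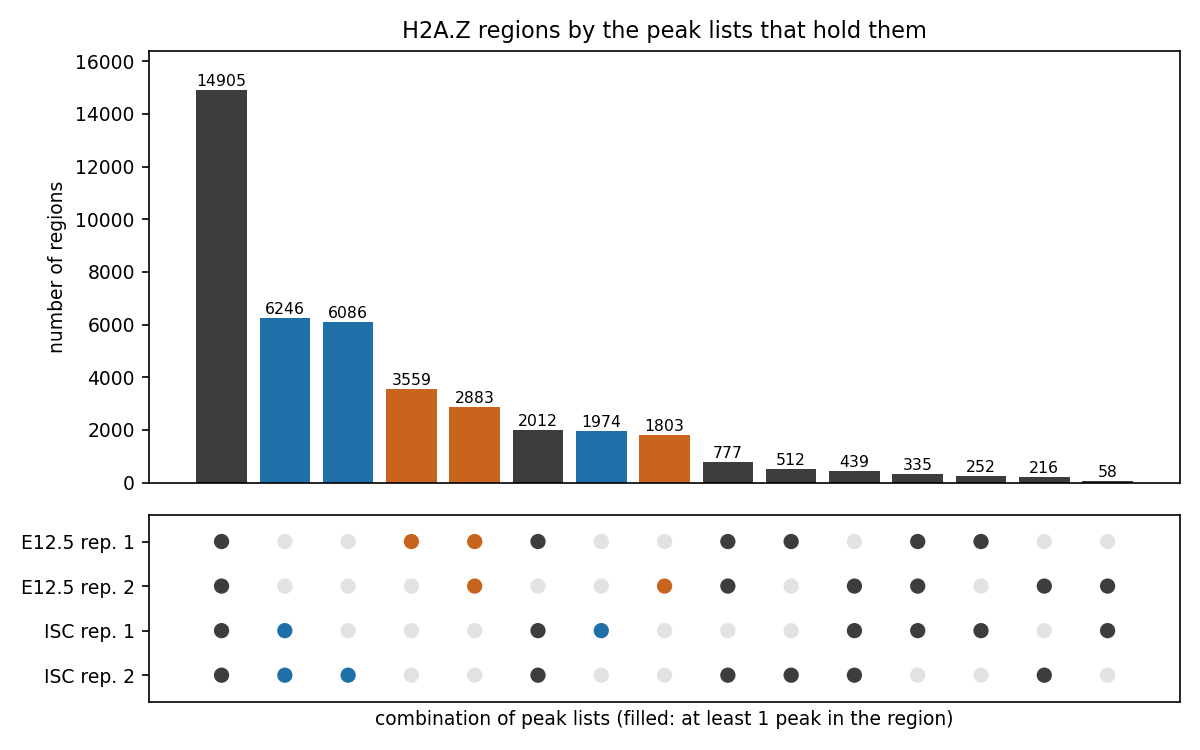
Number of autosomal H2A.Z regions (vertical axis) for each combination of the E12.5 and ISC peak lists that have a peak in the region (filled circles below each bar; orange for combinations of E12.5 lists alone, blue for ISC lists alone, dark grey for combinations of both stages). The 14905 regions of all 4 lists are the tallest bar, followed by the 6246 regions of both ISC lists and the 6086 of ISC replicate 2 alone.

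The balance of E12.5 and ISC regions moved with how the lists were cut. E12.5 regions made up 31.6% of the regions that belonged to 1 stage. With the 21661 strongest peaks of every list, the counts were 3146 E12.5 and 3515 ISC regions, 47.2% E12.5. The full lists of the other stage held a lower peak in 871 of these E12.5 regions (27.7%) and 384 of these ISC regions (10.9%). With peaks of a −log10 q of at least 10 alone, the counts were 135 and 2712, 4.74% E12.5. The median −log10 q in the shared regions was 8.26 and 5.61 at E12.5 and 10.6 and 9.88 in ISC, so this limit removed more of the E12.5 lists. Leaving out a library loosens the rule by construction. The counts were then 4686 E12.5 and 8258 ISC regions (36.2% E12.5) without E12.5 replicate 1. They were 6442 and 6685 (49.1%) without E12.5 replicate 2. They were 3218 and 12332 (20.7%) without ISC replicate 1, and 3660 and 8220 (30.8%) without ISC replicate 2.

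The strongest regions of either stage were nearly all present in the other stage. For this, all regions with a peak in both lists of a stage were ranked, shared ones included. The ranking was by fold enrichment, the authors' ratio of peak signal to local background, which describes a peak within its own list. Of the 1000 strongest regions of both E12.5 lists, 987 had a peak in both ISC lists and 9 in neither, 0.900% (0.474 to 1.70). Of the 1000 strongest regions of both ISC lists, 990 had a peak in both E12.5 lists and 2 in neither (upper 95% limit 0.726%). Among the 10000 strongest regions of both lists of a stage, the share in neither list of the other stage was 4.43% for E12.5 and 5.36% for ISC.

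Regions of 1 stage were narrower and lower within their lists than shared ones. The median width was 605 bp for E12.5 regions, 756 bp for ISC regions and 1488 bp for shared regions, which join peaks of more lists and are widened by this. E12.5 regions had a median fold enrichment of 3.17 in replicate 1 and 2.99 in replicate 2. In the shared regions the same lists had 4.16 and 3.50. ISC regions had a median fold of 2.79 and 3.04, and the ISC lists had 3.95 and 4.03 in the shared regions. As a percentile of its own list, the median E12.5 region stood at 33.0 and 31.0 and the median ISC region at 29.8 and 38.9, while shared regions stood at 61.2 to 73.4 over the 4 lists.

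Those E12.5 regions that were strongest, by the fold in their weaker list, reached values well above those medians. On chromosome 8 at 62984580 to 62985308, the fold was 5.34 and 6.47 in the E12.5 lists, and 2.85 and 3.62 in the E14.5 lists. On chromosome 1 at 17717079 to 17718123 the E12.5 lists had 6.36 and 5.02, and the E14.5 lists had 3.62 and 3.23. These regions had no peak in ISC or in enterocytes, the absorptive cells of the adult villus. On chromosome 7 at 64764325 to 64765440 the E12.5 lists had a fold of 6.39 and 4.48, and E14.5 replicate 1 had 2.97. The region on chromosome 10 at 61057609 to 61058312, with 4.57 and 4.65, stood alone among the 10 named E12.5 regions in having a peak in no other list of the series. Over these 10 regions the fold ran from 4.46 to 6.39 in E12.5 replicate 1 and from 4.46 to 6.47 in replicate 2. With peaks of a −log10 q of at least 10 alone, 3 of the 10 named E12.5 regions were still in both E12.5 lists, 4 were no longer in both, those on chromosomes 7 and 10 among them, and 3 had no peak left.

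The ISC regions named by the same rule had peaks in the adult enterocytes. On chromosome 7 at 97432717 to 97434373, the fold was 5.72 and 6.94 in ISC and 4.09 and 4.00 in enterocytes, and E14.5 replicate 1 had a peak of 4.50. On chromosome 6 at 115742104 to 115743437 it was 6.09 and 5.54 in ISC and 4.82 and 6.18 in enterocytes. On chromosome 3 at 143861334 to 143862059 it was 6.41 and 5.47 in ISC and 3.84 and 4.23 in enterocytes. The latter regions had no embryonic peak at either age. On chromosome 17 at 36342208 to 36343414 the values were 5.41 and 5.47 in ISC and 4.59 and 4.75 in enterocytes. Of the 10 named ISC regions, all 10 had a peak in enterocyte replicate 2, 9 in enterocyte replicate 1, 3 in E14.5 replicate 1 and 0 in E14.5 replicate 2. All 10 were still ISC regions at a −log10 q of at least 10.

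The E14.5 and enterocyte lists took no part in choosing the regions and serve as a separate readout. E12.5 regions had a peak in E14.5 replicate 1 in 839 of 2883 cases, 29.1% (27.5 to 30.8). Enterocyte replicate 2 had a peak in 67 of them, 2.32% (1.83 to 2.94). ISC regions showed the opposite order, with 381 of 6246 present in E14.5 replicate 1, 6.10% (5.53 to 6.72), against 2982 in enterocyte replicate 2, 47.7% (46.5 to 49.0). Shared regions had a peak in these lists in 86.4% and 83.5% of cases. E14.5 replicate 2 and enterocyte replicate 1 had caller fragment sizes of 71 and 67 bp, near the read length of 68 bp, and 5999 and 14113 autosomal peaks. These lists held fewer regions of every class. E14.5 replicate 2 had 3.88% of E12.5 regions and 0.432% of ISC regions, and enterocyte replicate 1 had 0.312% and 15.0%. No peak in any of the 4 lists was found for 1978 E12.5 regions (68.6%), 3075 ISC regions (49.2%) and 799 shared regions (5.36%). The stage difference in these shares was not tested.

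**Figure D2:**
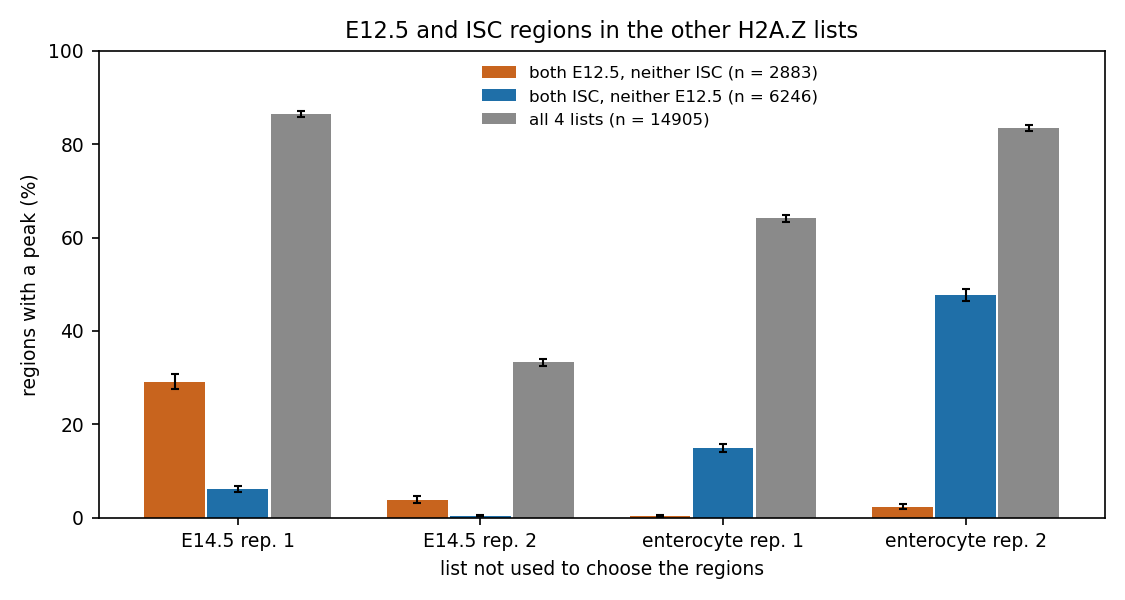
Share of regions (vertical axis, %) with a peak in each E14.5 and enterocyte list, for the E12.5 regions (orange), the ISC regions (blue) and the shared regions (grey); error bars are 95% Wilson intervals. In E14.5 replicate 1, E12.5 regions stand at 29.1% and ISC regions at 6.10%, and in enterocyte replicate 2 at 2.32% and 47.7%.

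For several lists, the share with a peak was highest in the strongest regions. When E12.5 regions were ranked by fold and divided into 4 equal classes, the share with a peak in E14.5 replicate 1 was 16.6% in the weakest class, then 23.7%, 28.7% and 47.3% in the strongest. For ISC regions, the share with a peak in enterocyte replicate 2 was 40.1%, 41.8%, 46.1% and 62.9% in the same order. In enterocyte replicate 1 it was 8.83%, 9.55%, 13.4% and 28.2%. The share of E12.5 regions in enterocyte replicate 2 showed no such order, at 3.19%, 1.39%, 2.22% and 2.50%. In enterocyte replicate 1 the classes held 3, 2, 3 and 1 such regions, the last 0.139% of its class, too few to read an order from. ISC regions in E14.5 replicate 1 went from 3.65% in the weakest to 8.96% in the strongest class. In E14.5 replicate 2 the next to strongest class had 9 regions (0.577%) and the strongest 8 (0.512%), too few to read an order from. Shared regions, divided by their E12.5 fold, went from 63.8% to 99.2% in E14.5 replicate 1. No trend was tested.

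Distances from regions of 1 stage to shared ones are given without a background of randomly placed regions, so they cannot be called far or near. Peaks that touched a shared region were merged into it by the rule. The median distance from an E12.5 region to the nearest shared region was 48.5 kb, with quartiles of 17.7 and 133 kb, and 49.3% (47.5 to 51.1) lay more than 50 kb away. ISC regions lay at a median of 29.3 kb (quartiles 10.6 and 72.1 kb), with 35.1% (34.0 to 36.3) beyond 50 kb. Within 2 kb of a shared region were 2.08% of E12.5 and 4.07% of ISC regions. There were fewer E12.5 than ISC regions, and the distances were not tested. The share of E12.5 regions among those of 1 stage varied between chromosomes from 26.9% (22.1 to 32.2) on chromosome 19 to 41.7% (36.7 to 46.8) on chromosome 15.

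Some regions of 1 stage stood in runs, defined as at least 4 regions of the same stage with gaps of at most 50 kb. ISC regions formed 173 runs with 818 regions, 13.1% of their number, and E12.5 regions 17 runs with 80 regions, 2.77%. A denser set forms more runs by its number alone, so these shares were not compared. The longest E12.5 run lay on chromosome 12 at 12687212 to 12927953 and held 12 regions in 241 kb. Its fold enrichment was 2.69 to 5.06 in E12.5 replicate 1 and 2.58 to 3.98 in replicate 2. No shared region lay inside, 3 ISC regions did, and 6 of the 12 had a peak in E14.5 replicate 1 but none in an enterocyte list. The next E12.5 run was on chromosome 12 at 110655640 to 110748083, with 7 regions in 92.4 kb. A run of 5 regions followed on chromosome 6 at 122612692 to 122715128.

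The ISC run with most regions lay on chromosome 2 at 91131094 to 91282450 and also held 12 regions, in 151 kb. Its fold was 2.28 to 3.90 in ISC replicate 1 and 2.46 to 4.65 in replicate 2. Enterocyte replicate 2 had a peak in 7 of these regions, enterocyte replicate 1 in 3, and the E14.5 lists in 0. On chromosome 13 at 23602232 to 23713028, 11 ISC regions stood in 111 kb, in a run that also held 3 shared regions. The fold of the ISC regions reached 4.87 and 5.26. Of these 11, enterocyte replicate 2 had a peak in 7, enterocyte replicate 1 in 6 and E14.5 replicate 1 in 3. A run of 10 ISC regions lay on chromosome 12 at 78083905 to 78239175. Another 10 made up a run on chromosome 17 at 84247251 to 84438274, and enterocyte replicate 2 had a peak in 8 of these. None of the 20 regions of these latter runs had a peak in an E14.5 list.

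At the shared regions, ISC peaks tended to be longer, a shift seen in the median and in both quartiles of length. The median length covered by peaks was 1122 bp in E12.5 replicate 1, 964 bp in E12.5 replicate 2, 1255 bp in ISC replicate 1 and 1280 bp in ISC replicate 2. The median ratio of ISC to E12.5 length was 1.19, a log2 difference of 0.254. It was 0.346 with E12.5 replicate 1 dropped and 0.146 with E12.5 replicate 2 dropped. The E12.5 replicates differed from each other by 0.219 on the same scale and the ISC replicates by −0.0285, replicate 1 minus replicate 2. The peaks in shared regions covered 17.4 and 14.9 Mb at E12.5 and 19.9 and 20.3 Mb in ISC. The larger fragment sizes of the ISC libraries given above moved with this shift, and their part in it was not tested.

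In 7713 of the 14905 shared regions, 51.7%, both ISC lists were longer than both E12.5 lists, and in 1672, 11.2%, the reverse held. With a gap of at least 1.5 times, the counts were 1612 (10.8%) and 330 (2.21%). Centring each list on its own median length removes the overall shift by construction. ISC was then relatively longer in 3707 regions (24.9%) and E12.5 in 4726 (31.7%). At 1.5 times or more after centring, ISC was still ahead, with 888 (5.96%) against 682 (4.58%). At a Benjamini-Hochberg adjusted p of 0.05, limma on log2 length called 0 regions longer in ISC (0% of those tested) and 0 longer at E12.5 (0%), with a lowest adjusted p of 0.0555. At an unadjusted p under 0.05 there were 2968 and 625. With limma-trend, which lets the expected spread vary with mean length, 320 and 25 regions passed, and on ranks of length 122 and 49. At a −log10 q of at least 10, 71 and 4 of 1271 shared regions passed.

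**Figure D3:**
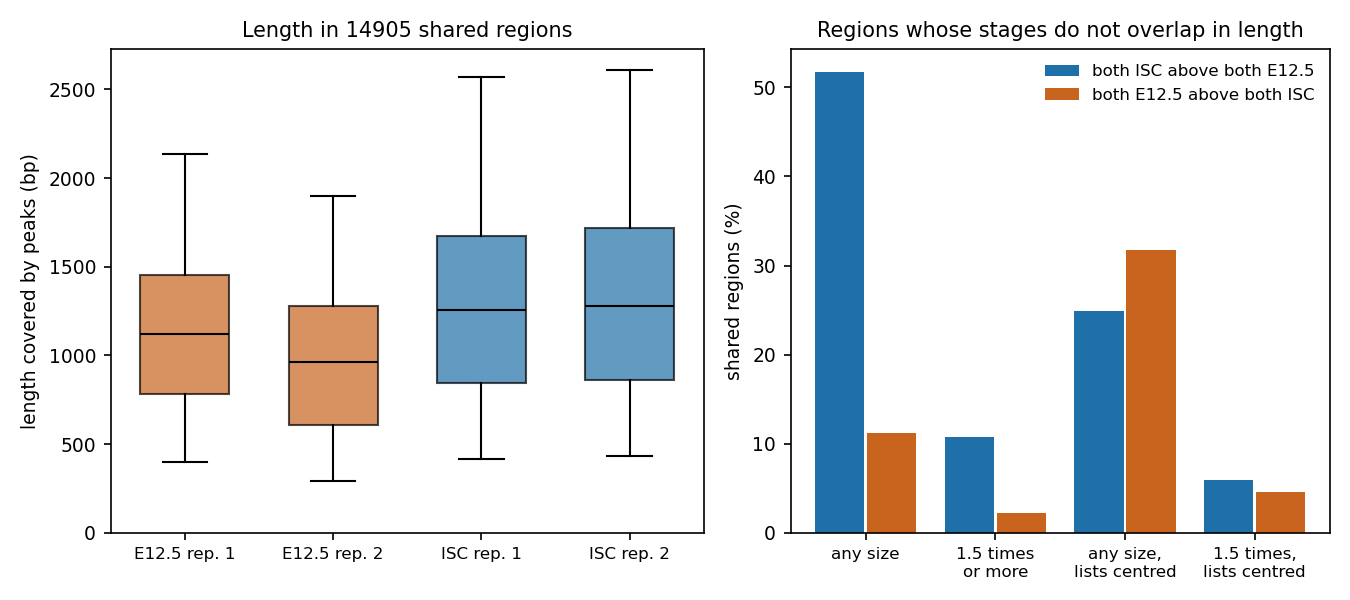
Left, length covered by peaks (bp) in the 14905 shared regions for each list (line, median; box, quartiles; whiskers, 5th to 95th percentile; orange E12.5, blue ISC). Right, share of shared regions (%) in which both lists of a stage were longer than both of the other, at any size or by 1.5 times, before and after centring each list on its median. The ISC medians of 1255 and 1280 bp lie above 1122 and 964 bp at E12.5, and the order of the bars turns after centring at any size but not at 1.5 times.

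The longer ISC peaks reached outward on either side. Both ISC lists extended beyond both E12.5 lists at both edges in 3576 regions, 24.0% (23.3 to 24.7), and at 1 edge, with the other overlapping, in 5194 (34.8%). E12.5 peaks extended further at both edges in 496 regions (3.33%) and at 1 edge in 1715 (11.5%). In 1216 regions (8.16%) each stage reached further on 1 side, and in 2708 (18.2%) no edge stood apart. The median outward shift of ISC edges was 79 bp on the left and 78 bp on the right.

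The largest gaps in length were far above that shift. They are given as values, since no region passed the adjusted test. On chromosome 7 at 28116021 to 28118634, peaks covered 251 and 204 bp at E12.5 and 2584 and 2529 bp in ISC. On chromosome 12 at 25779566 to 25786164, they covered 430 and 634 bp at E12.5 and 6599 and 5652 bp in ISC. The called E12.5 peaks thus covered a small part of what ISC peaks spanned. Fold percentiles among the shared regions of a list were 11.3 and 0.745 there at E12.5, and 44.6 and 50.2 in ISC. In the chromosome 7 region they were 28.4 and 39.3 at E12.5, and 32.7 and 23.1 in ISC. On chromosome 3 at 143864626 to 143869454 the lengths were 567 and 416 bp at E12.5 and 4766 and 4643 bp in ISC. This region starts 2566 bp beyond the end of the named ISC region on chromosome 3 at 143861334 to 143862059.

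Regions that were longer at E12.5 showed the mirrored pattern. On chromosome 1 at 72918300 to 72921866, peaks covered 3321 and 3567 bp at E12.5 and 412 and 528 bp in ISC. On chromosome 13 at 96902038 to 96904008 they covered 1803 and 1922 bp at E12.5 and 266 and 367 bp in ISC. The ISC fold percentiles were 1.03 and 2.78 in the chromosome 1 region and 31.4 and 5.19 in the chromosome 13 region. Whether the calling cutoff shortened the peaks of the shorter stage was not tested. All these regions were chosen for their gap in length, which fixes that the stages do not overlap in them.

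Splitting of a region into several peaks was rare. A single peak in each of the 4 lists was found in 14485 shared regions, 97.2%. Both E12.5 lists had at least 2 peaks where both ISC lists had 1 in 66 regions, 0.443% (0.348 to 0.563), and the reverse was found in 5 regions, 0.0335% (0.0143 to 0.0785). Regions with at least 2 peaks numbered 195 and 225 in the E12.5 lists and 54 and 122 in the ISC lists. The widest gap between the E12.5 peaks of the 66 regions ran from 865 to 3619 bp, with a median of 1171.5 bp. Dropping E12.5 replicate 1 gave 177 regions of the first kind and dropping E12.5 replicate 2 gave 165. Of the second kind, 8 were found if E12.5 replicate 2 was dropped, 77 if ISC replicate 1 was dropped and 26 if ISC replicate 2 was dropped, since the stage with a list dropped then needed 1 list alone to meet the rule. With peaks of a −log10 q of at least 10 alone, both counts were 0.

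The widest split region lay on chromosome 14 at 58689216 to 58695872. There, 2 E12.5 peaks per list covered 3467 and 3722 bp, and 1 ISC peak per list covered 6521 and 6516 bp. On chromosome 2 at 30325203 to 30330554, the E12.5 peaks covered 2170 and 1522 bp of the 5208 and 5352 bp under the single ISC peaks. ISC peaks bridged the gap in both cases. In the reverse direction, on chromosome 6 at 53767702 to 53771420, single E12.5 peaks of 3309 and 2972 bp stood against pairs of ISC peaks that covered 1917 and 1567 bp. Of the 5 regions of this kind, it was the 1 in which both E12.5 lists covered more than both ISC lists. On chromosome 12 at 112243845 to 112248166, for example, the E12.5 peaks covered 3679 and 1177 bp and the ISC peaks 3208 and 2957 bp.

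Shared regions also differed in how high they ranked within each stage. Pileup, the authors' coverage of a peak by fragments, is not scaled between libraries, so each region was given its percentile among the 14905 shared regions of the same list, with 100 the highest. The ranks were tested with limma on normal scores, which turn a rank into a value on a standard bell curve. Pileup ranked higher in ISC in 968 regions, 6.49% of those tested, and higher at E12.5 in 1158, 7.77% (limma, adjusted p under the threshold of 0.05). The median gap between the stages' mean percentiles was 40.2 points in the former and 42.0 in the latter. On log2 pileup centred on each list in place of ranks, 1026 and 1897 regions passed, so that the share higher in ISC was 35.1% in place of 45.5%. When peaks were limited to a −log10 q of at least 10, 0 and 0 of 1271 shared regions passed, and 221 had an unadjusted limma p under 0.05. If ISC replicate 1 was dropped the counts were 286 and 439, and if ISC replicate 2 was dropped, 296 and 492. They were 1643 and 1783 with E12.5 replicate 1 dropped, and 1584 and 1640 with E12.5 replicate 2 dropped.

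Of the shared regions with a higher pileup rank in ISC, that on chromosome 17 at 17974207 to 17976004 had the largest gap in percentiles between the closest lists of the stages. Its pileup was 19.2 and 13.7 at E12.5 and 49.5 and 45.3 in ISC, the percentiles 10.8, 1.53, 88.7 and 90.3. The difference was 2.96 normal-score units (SE 0.361, limma adjusted p = 6.16e-04). The region was low in both E12.5 lists and among the upper shared regions in both ISC lists. On chromosome 8 at 77632610 to 77634359, the pileup was 23.2 and 22.0 at E12.5 and 56.8 and 51.0 in ISC, at percentiles of 27.9, 28.2, 97.4 and 97.3. On chromosome 3 at 27608103 to 27610499, the pileup was 23.9 and 20.4 at E12.5 and 57.2 and 58.0 in ISC, at percentiles of 31.2, 19.7, 97.7 and 99.6. Its difference was 2.99 (SE 0.343, limma adjusted p = 6.06e-04). The covered length there was 1104 and 1041 bp at E12.5 and 2397 and 2008 bp in ISC.

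In the other direction, the region on chromosome 1 at 10983184 to 10984463 had a pileup of 36.6 and 34.9 at E12.5 and 19.1 and 16.9 in ISC. Its percentiles were 91.0, 94.3, 7.02 and 2.78, and its difference, ISC minus E12.5, was −3.15 (SE 0.326, limma adjusted p = 4.60e-04). On chromosome 7 at 94394483 to 94395929 the fold was 6.58 and 5.66 at E12.5 and 2.89 and 3.30 in ISC. The pileup of that region stood at percentiles of 84.9 and 90.1 at E12.5 and 1.00 and 1.24 in ISC (difference −3.44, SE 0.316, limma adjusted p = 4.27e-04). A second region of chromosome 7, at 64641891 to 64642916, had a pileup of 35.7 and 34.7 at E12.5 and 18.8 and 13.8 in ISC (difference −3.45, SE 0.384, limma adjusted p = 5.06e-04). It lies 121 kb before the named E12.5 region on chromosome 7 at 64764325 to 64765440. On chromosome 14 at 62911225 to 62912234, the pileup was 41.7 and 39.8 at E12.5 and 22.6 and 22.8 in ISC.

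**Figure D4:**
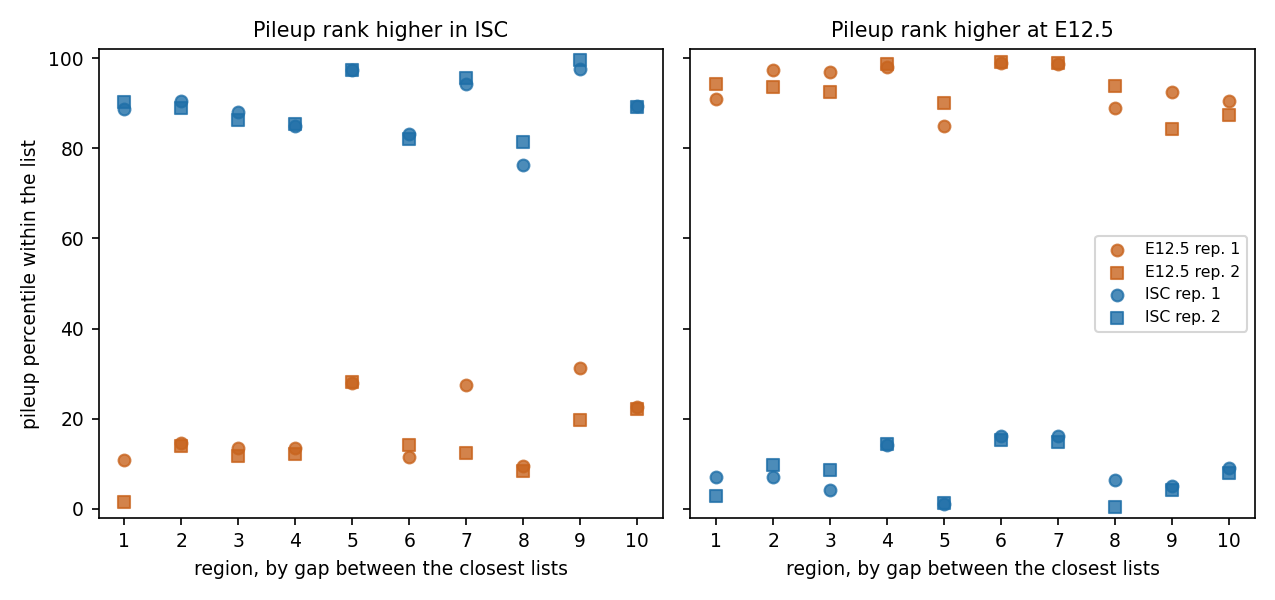
Pileup percentile within each list (vertical axis, 0 to 100 among the 14905 shared regions) of the 10 shared regions per direction with the largest gap between the closest lists of the stages (horizontal axis, ordered by that gap; circles replicate 1, squares replicate 2; orange E12.5, blue ISC). The first region on the left stands at 10.8 and 1.53 at E12.5 and at 88.7 and 90.3 in ISC, and the first on the right at 91.0 and 94.3 against 7.02 and 2.78.

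Fold enrichment, which sets a peak against the local background, gave fewer calls. Its rank was higher in ISC in 274 regions, 1.84% of those tested, and higher at E12.5 in 250, 1.68%, with a lowest limma adjusted p of 0.0309. The median gaps were 63.7 (range 7.98 to 93.5) and 65.0 (7.32 to 92.6) percentile points. Replicates at E12.5 were less alike in fold than those of ISC: Spearman's rho over the shared regions was 0.571 between the E12.5 lists and 0.873 between the ISC lists, which share an input. Between the stages it was 0.397 to 0.471. For pileup the values were 0.821, 0.905 and 0.630 to 0.650. Regions of a list share its library and depth, and no p is given. Without an ISC library nearly all fold calls were lost, with 3 and 5 left when ISC replicate 1 was dropped and 0 and 2 when ISC replicate 2 was dropped. Dropping E12.5 replicate 1 gave 2414 and 2375 calls, and dropping E12.5 replicate 2 gave 2052 and 2028. The differences of the 20 named regions stayed at 0.786 to 1.21 times their size when an ISC library was dropped, while their median SE was 0.776 in place of 0.443. On chromosome 3 at 27608103 to 27610499, the difference was 3.08 (SE 0.421) with all libraries, 3.24 (SE 0.775) with ISC replicate 1 dropped and 2.93 (SE 0.775) with ISC replicate 2 dropped. On log2 fold centred on each list, 761 and 841 regions passed. At a −log10 q of at least 10, 1 and 0 of 1271 shared regions did, and 243 had an unadjusted limma p under 0.05.

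The pileup and fold calls pointed the same way where they met. Both come from the same peaks. Of the 968 regions with a higher pileup rank in ISC, 152 also had a higher fold rank there, 15.7% of the pileup and 55.5% of the fold calls. For E12.5 the overlap was 149 regions, 12.9% and 59.6%. No region was called in opposite directions by these measures. The region on chromosome 17 at 17974207 to 17976004 was among both, with a fold of 3.08 and 2.67 at E12.5 and 5.50 and 5.38 in ISC (limma adjusted p = 0.0309 for the rank of fold). So was the region on chromosome 7 at 64641891 to 64642916, whose fold was 7.03 and 6.65 at E12.5 and 3.01 and 2.60 in ISC (limma adjusted p = 0.0309).

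**Figure D5:**
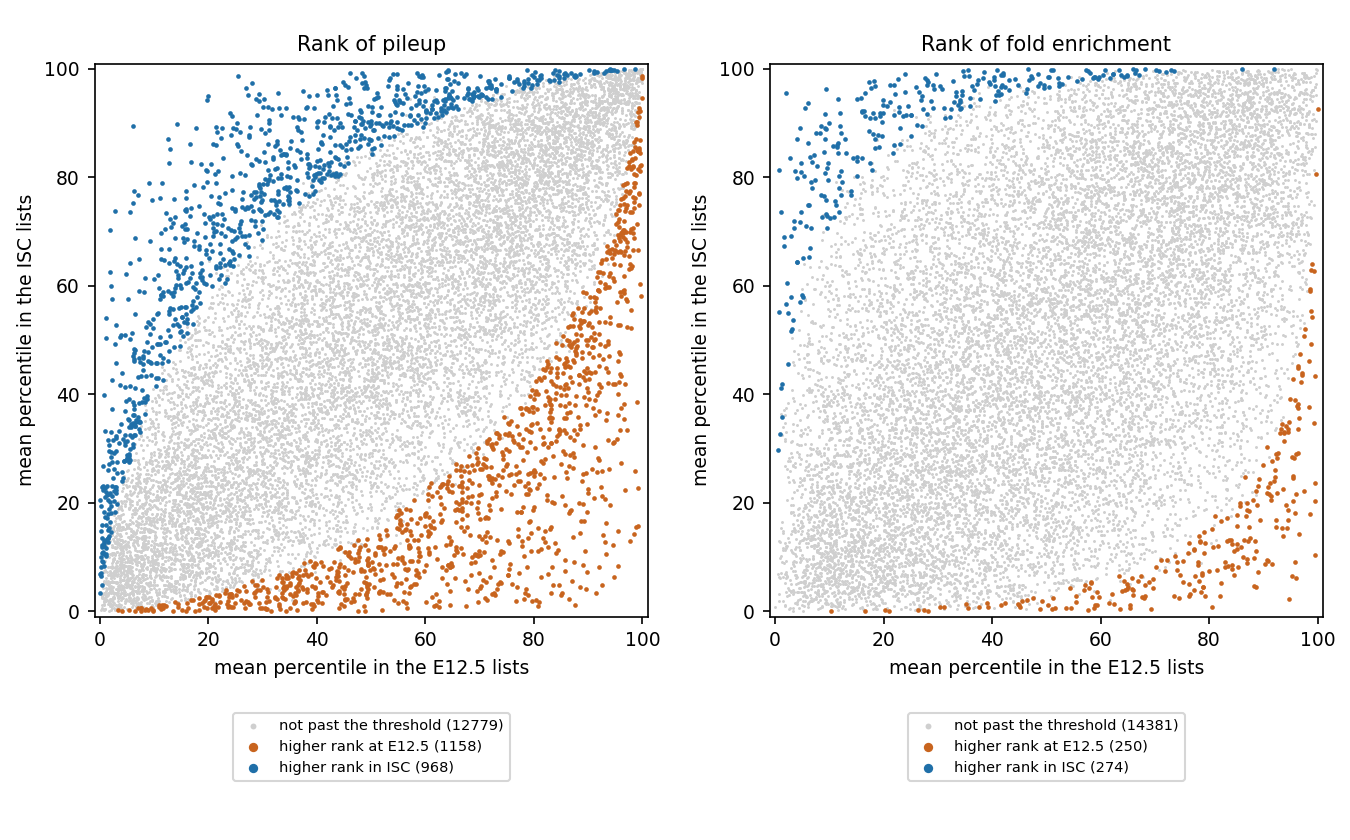
Mean percentile of each of the 14905 shared regions in the E12.5 lists (horizontal axis) and the ISC lists (vertical axis), for pileup (left) and fold enrichment (right). Blue points ranked higher in ISC (968 and 274) and orange points higher at E12.5 (1158 and 250) at a limma adjusted p under 0.05; grey points did not pass.

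Length and rank were partly linked in these sets. Regions with a higher pileup rank in ISC had a median length of 1065 bp at E12.5 and 1435 bp in ISC, a ratio of 1.32, and both ISC lists were longer in 68.6% of them, where 51.7% of all shared regions were. Regions with a higher pileup rank at E12.5 had 987 bp at E12.5 and 912 bp in ISC, a ratio of 0.938, and ISC was longer in 26.6%. Length and pileup are read from the same peaks, so neither is separate support for the other.

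The E14.5 and enterocyte lists were also read at the rank calls. Of regions with a higher pileup rank in ISC, 84.8% and 95.9% had a peak in enterocyte replicates 1 and 2, beside 64.2% and 83.5% of all shared regions. For regions with a higher rank at E12.5, the shares were 27.6% and 50.9%. When all shared regions were divided into 4 classes by ISC fold, the weakest class had 26.8% and 56.6% and the strongest 91.6% and 98.9% in the same lists. In E14.5 replicates 1 and 2 the shares were 82.4% and 25.7% for the ISC direction and 91.5% and 41.1% for the E12.5 direction, beside 86.4% and 33.3% of all. For the fold calls, enterocyte replicates 1 and 2 had peaks in 88.0% and 98.2% of the ISC direction and in 27.2% and 54% of the E12.5 direction. E14.5 replicates 1 and 2 had peaks in 87.2% and 31.8% of the ISC direction and in 93.2% and 38.8% of the E12.5 direction. These shares were not tested.

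Where the other lists had a peak, its rank was set beside these calls. The median fold percentile of regions with a higher fold rank in ISC was 57.9 and 74.9 in enterocyte replicates 1 and 2, and 40.4 and 38.1 in E14.5 replicates 1 and 2. For regions with a higher fold rank at E12.5 it was 41.5 and 25.5 in enterocytes and 55.7 and 50.6 at E14.5. For regions with a higher pileup rank in ISC the values were 61.4 and 71.6 in enterocytes and 41.8 and 40.4 at E14.5. For those with a higher pileup rank at E12.5 they were 41.3 and 28.4 in enterocytes and 55.8 and 42.8 at E14.5, so that both pileup sets stood nearly level in E14.5 replicate 2. These medians cover only the regions with a peak in the list, for the fold calls in the E12.5 direction 68 and 135 of 250 in enterocytes and 233 and 97 at E14.5. Of the 10 named regions with a higher pileup rank in ISC, all 10 had a peak in both enterocyte lists, 8 in E14.5 replicate 1 and 1 in E14.5 replicate 2. Of the 10 with a higher rank at E12.5, 0 had a peak in enterocyte replicate 1, 2 in enterocyte replicate 2, 10 in E14.5 replicate 1 and 6 in E14.5 replicate 2.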

How the data were processed

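The deposited files are peak lists of MACS 2.1.0.20140616 in broad mode, 1 per library and not pooled, called against input (q cutoff 0.05, model fold range 10 to 30), as the file headers record. In the 4 lists compared, the lowest −log10 q of a peak was 1.00 to 1.02, so some listed peaks fell short of that cutoff. Further tools named in the submitters' processing notes are bcl2fastq 1.8.4, Bowtie 1.1.2, and SAMtools 1.2, with build mm9. The deposited pileup is a coverage signal of each peak, the −log10 p and q are the authors' evidence against input, fold enrichment is the ratio to local background that the authors' caller wrote, and peak length is in bp, per the file headers. Pileup and fold enrichment were ranked or centred within each list before the stages were tested. Their raw values, printed for single regions, are not scaled between lists. Length was compared between lists in bp.

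Autosomal peaks of the 4 lists were merged with Python 3.11.15 (pandas 2.3.3). A region's length was the bp covered by a list's peaks, and its pileup and fold were the highest of its peaks. Length (log2) and normal scores of ranks were tested across all shared regions with limma 3.58.1 (R 4.3.3), without a replicate block, with Benjamini-Hochberg adjustment. The model was tested on simulated data at 14905 regions: of 100 regions shifted by 4 residual SD, 53 (length), 69 (pileup) and 68 (fold) were called. At 6 residual SD, 100, 98 and 100 of 100 were called, and 4, 8 and 7 of 14705 unshifted regions. The simulation gave every region and list the same residual SD. In the real data the E12.5 replicates were less alike in fold than the ISC replicates, so these shares need not hold there. Depth was 31507399 to 38511645 tags. Named regions were, per direction, the 10 with the highest lower fold (presence), the 10 past the threshold with the largest gap between the closest lists of the stages (ranks), the 5 widest (splitting) and the 5 runs with most regions, of which some are printed. The length regions were chosen after their values were seen, since none passed. Alternatives were peak threshold, list length, coverage, merging within 500 bp, scaling, several-peak values, regions with 1 peak per list, limma-trend, a replicate block and each library left out in turn. The members and lists were chosen with earlier results of these data known. Gene lists and sequences were not used here, since the reference tables are of another build (the last peak of chromosome 1 ends at 197068299, beyond the last gene of the GRCm38 table at 195291439).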

Additional observations from a re-analysis of the deposited data

How the results depend on the processing

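With peaks of a −log10 q of at least 10 there were 135 E12.5 and 2712 ISC regions, 0 split regions in either direction, 71 regions longer in ISC and 4 longer at E12.5, 0 and 0 pileup calls, and 1 and 0 fold calls (ISC and E12.5), over 1271 shared regions, of which 221 (pileup) and 243 (fold) had an unadjusted limma p under 0.05. With equal lists the ISC regions were 3515 and the regions split in ISC 3. Length calls were 122 and 49 on ranks and 320 and 25 with limma-trend. On centred log2 values, pileup calls at E12.5 were 1897 and fold calls 761 and 841. Leaving out each library gave 3218 to 6442 E12.5 and 6685 to 12332 ISC regions, 77 to 177 regions split at E12.5 and 6 to 77 split in ISC, 286 to 1643 and 439 to 1783 pileup calls, 0 to 2414 and 2 to 2375 fold calls, and 0 length calls (2094 to 4894 at an unadjusted p under 0.05), with the lone library of a stage assumed to vary like the other stage. Without ISC replicate 2, 1505 regions had an unadjusted p under 0.05 for fold. Apart from the looser rule that fewer lists give to presence and splitting, the cause was not tested. The replicate numbers gave only 2 pairs, and deviations of same-numbered libraries correlated at 0.0535 (length), 0.0121 (pileup) and 0.0638 (fold). With a single difference between replicates per stage, these values cannot show whether same-numbered libraries were processed together. A replicate block gave 0 length calls, 955 and 1148 pileup calls and 977 and 953 fold calls. Of the 20 regions named per rank measure, all 20 kept their pileup call in the settings fitted on them, while 16 and 19 lost their fold call without ISC replicate 1 and 2, with differences of 0.786 to 1.21 times the full ones and a median SE of 0.776 in place of 0.443. None of the regions named by rank could be compared at a −log10 q of at least 10, so that setting is not among those fitted on them. Lists without read counts per region leave the depth behind single values unknown.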
